A study of Homo sapiens with 8 samples.

Results

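The genes described here encode the E2F and DP transcription factors, followed in SW480, an established cell line from a human colorectal cancer, after silencing of TCF7L2. The members were chosen by gene symbol, as the 8 E2F genes (E2F1 to E2F8) and the DP partner genes TFDP1 and TFDP2. All 10 were found among 18656 listed symbols, and all 10 passed the filter on low values, which kept 11894 genes. Total RNA was sequenced in 8 libraries. Of these, 2 were of cells given a negative-control small interfering RNA (siRNA), labelled 0 h, and the other 6 had TCF7L2 siRNA, with 2 libraries each at 24, 48 and 72 h. Per the labels, the TCF7L2 siRNA was delivered with a lipid reagent to 3 replicates, of which 2 libraries per group were analysed here. The control siRNA was labelled at 0 h alone, so silencing of TCF7L2 and the hours elapsed after transfection cannot be told apart.

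E2F factors bind DNA at promoters of genes for the G1/S transition and DNA replication, and most of them do so as a heterodimer with a DP protein. E2F1, E2F2 and E2F3 are classed as activators, which the retinoblastoma protein RB1 holds in check until cyclin-dependent kinases phosphorylate it. E2F4 and E2F5 act mainly with the pocket proteins p107 and p130 as repressors in quiescent cells, and E2F6 represses without pocket proteins, in a Polycomb complex. E2F7 and E2F8, the atypical members, bind DNA without a DP partner and repress in late S phase, among other genes E2F1. In many tumour lines, colorectal ones included, the RB pathway is loosened and E2F-driven genes are expressed at high levels.

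Several members are known as E2F targets themselves, so their promoters are shown first, for E2F1, for the 3 members with the largest log2 changes at 72 h (E2F2, E2F6 and TFDP2), and for E2F3, which did not pass the test at any time. The sequences are the 250 bases before the RefSeq transcription start (GRCh38.p14; the deposited values were made on hg19 and carry no coordinates), given 5′ to 3′ on the strand of the gene. Capitals mark matches, on either strand, to any of 4 E2F core motifs, namely TTTCGCG, its relative TTTGGCG, the form TTTCCCG and the form TTTGCCG. The promoter table held 8 of the 10 members, and E2F5 and E2F8 were not matched.
E2F1 (chr20:33686386-33686635, minus strand): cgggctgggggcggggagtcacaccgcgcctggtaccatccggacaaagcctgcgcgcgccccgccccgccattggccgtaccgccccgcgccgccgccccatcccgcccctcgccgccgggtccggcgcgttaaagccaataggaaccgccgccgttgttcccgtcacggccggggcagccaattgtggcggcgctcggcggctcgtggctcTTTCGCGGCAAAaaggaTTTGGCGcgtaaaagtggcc
E2F2 (chr1:23531234-23531483, minus strand): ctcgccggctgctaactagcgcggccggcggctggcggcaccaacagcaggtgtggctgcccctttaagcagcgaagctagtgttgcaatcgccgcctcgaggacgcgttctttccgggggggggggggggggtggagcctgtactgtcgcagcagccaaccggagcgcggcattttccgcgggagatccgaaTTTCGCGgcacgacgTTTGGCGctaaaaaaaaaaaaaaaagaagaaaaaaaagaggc
E2F3 (chr6:20401629-20401878, plus strand): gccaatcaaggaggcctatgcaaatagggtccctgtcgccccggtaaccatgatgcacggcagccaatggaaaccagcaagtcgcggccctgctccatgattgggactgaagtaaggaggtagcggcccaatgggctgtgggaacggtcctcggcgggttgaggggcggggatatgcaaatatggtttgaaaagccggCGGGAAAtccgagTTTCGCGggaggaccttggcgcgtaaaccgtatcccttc
E2F6 (chr2:11466162-11466411, minus strand): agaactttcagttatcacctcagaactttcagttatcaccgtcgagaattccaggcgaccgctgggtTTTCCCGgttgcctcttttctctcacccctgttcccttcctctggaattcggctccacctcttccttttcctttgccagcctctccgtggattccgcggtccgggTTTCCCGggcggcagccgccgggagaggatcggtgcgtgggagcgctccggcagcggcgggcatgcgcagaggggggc
TFDP2 (chr3:142149545-142149794, minus strand): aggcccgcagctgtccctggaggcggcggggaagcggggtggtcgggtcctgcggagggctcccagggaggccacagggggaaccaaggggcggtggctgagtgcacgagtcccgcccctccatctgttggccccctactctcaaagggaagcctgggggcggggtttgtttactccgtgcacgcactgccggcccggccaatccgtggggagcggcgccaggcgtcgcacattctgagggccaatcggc

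The E2F1 promoter held 3 matches, at -37 to -31, -32 to -26 and -20 to -14 from the start, and the matches at -37 to -31 and -32 to -26 overlap on opposite strands. The E2F2 promoter held 2, at -57 to -51 and -42 to -36. In E2F3, the first of its 2 listed promoters had matches at -52 to -46 and -39 to -33, and the other had none. E2F6 had 2, at -183 to -177 and -78 to -72, and TFDP1 had 1, at -119 to -113. No match lay in the windows of E2F4, E2F7 or the 3 listed promoters of TFDP2. In all, 5 of 11 member promoters (45.5%) held an E2F core match, against 2573 of 35116 listed promoters (7.33%). The other cell-cycle motif searched, the CHR element TTTGAA, occurred in 3 of 11 member promoters (27.3%), against 13.3% of all. A match is a string of letters in this window and was not tested as a binding site.

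Levels are given as scaled TPM, the deposited abundance per transcript length (TPM) divided by a factor per library that brings the median gene to the same level. The factors lay between 0.987 and 1.07 in 7 libraries and at 0.804 in the second 72 h library, whose listed TPM summed to 352456, against 448107 to 485602 in the other 7. TPM as deposited shifted the median of all genes by -0.19 on the log2 scale at 72 h, and by -0.09 and -0.02 at 24 and 48 h, against 0 h. TPM holds no read depth, so counting error is unknown. Log2 changes are of (scaled TPM + 1), given ± SE from a limma fit to all 8 libraries, and they understate changes of low genes. A gene is called at an adjusted p under 0.05, with Benjamini-Hochberg adjustment over all 11894 genes. The p-values set differences between groups against the spread among these samples alone, moderated over all genes. The labels do not say that replicates were separate cultures, so that spread may be technical. TCF7L2 itself had 6.48 and 6.99 scaled TPM in controls, 5.81 and 5.11 by 24 h, 4.67 and 3.83 by 48 h, and 3.93 and 4.39 by 72 h. Its log2 change against 0 h was -0.26 ± 0.11 by 24 h (adjusted p = 0.288), -0.56 ± 0.11 by 48 h (adjusted p = 0.00725) and -0.58 ± 0.11 by 72 h (adjusted p = 0.00197), and the 48 h call was lost without the second 0 h or the second 48 h library. All 9 colon epithelial markers were detected, KRT20 at 0.491 to 3.22 scaled TPM, and their sum was 3019 to 3067 in controls, 3268 to 3314 by 24 h, 3976 to 3980 by 48 h, and 3918 to 4086 by 72 h. All 4 endothelial markers stayed under 1 scaled TPM. The sum of 6 fibroblast markers, mostly LUM, was 10.2 to 12.1 scaled TPM in controls, 9.28 to 11.1 by 24 h, 27.0 to 27.3 by 48 h, and 44.9 to 50.4 by 72 h, with COL1A2 and PDGFRB under 1 throughout. The sum of 4 leukocyte markers, mostly CD68 and LYZ, was 4.11 to 5.28 in controls, 6.05 to 6.48 by 24 h, 9.67 to 13.3 by 48 h, and 28.9 to 33.7 by 72 h, with the lineage-defining PTPRC and CD3E under 1 throughout. The part of these genes in the results was not tested.

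In control cells TFDP1 was the most abundant member, with 62.0 ± 1.17 scaled TPM (SD, n = 2), followed by E2F4 with 48.9 ± 3.08 and E2F1 with 30.4 ± 0.82. E2F6 (22.8 ± 1.68) and TFDP2 (20.6 ± 2.58) came next and overlapped between libraries. E2F5 had 10.7 ± 0.83, E2F7 6.51 ± 0.43, E2F3 5.76 ± 0.029 and E2F2 5.33 ± 0.30, each pair of neighbours without overlap. E2F8 was lowest with 1.55 ± 0.46. TPM is per transcript length, so these levels can be set against each other. At 72 h TFDP2 (30.9 ± 2.09) stood in rank 3, above E2F1 (24.5 ± 0.27) and E2F6 (14.6 ± 0.079), and no neighbours in the order overlapped. At 24 h TFDP2 and E2F6 overlapped, as did E2F3 and E2F7, and at 48 h TFDP2 overlapped both E2F1 and E2F6.

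**Figure D1:**
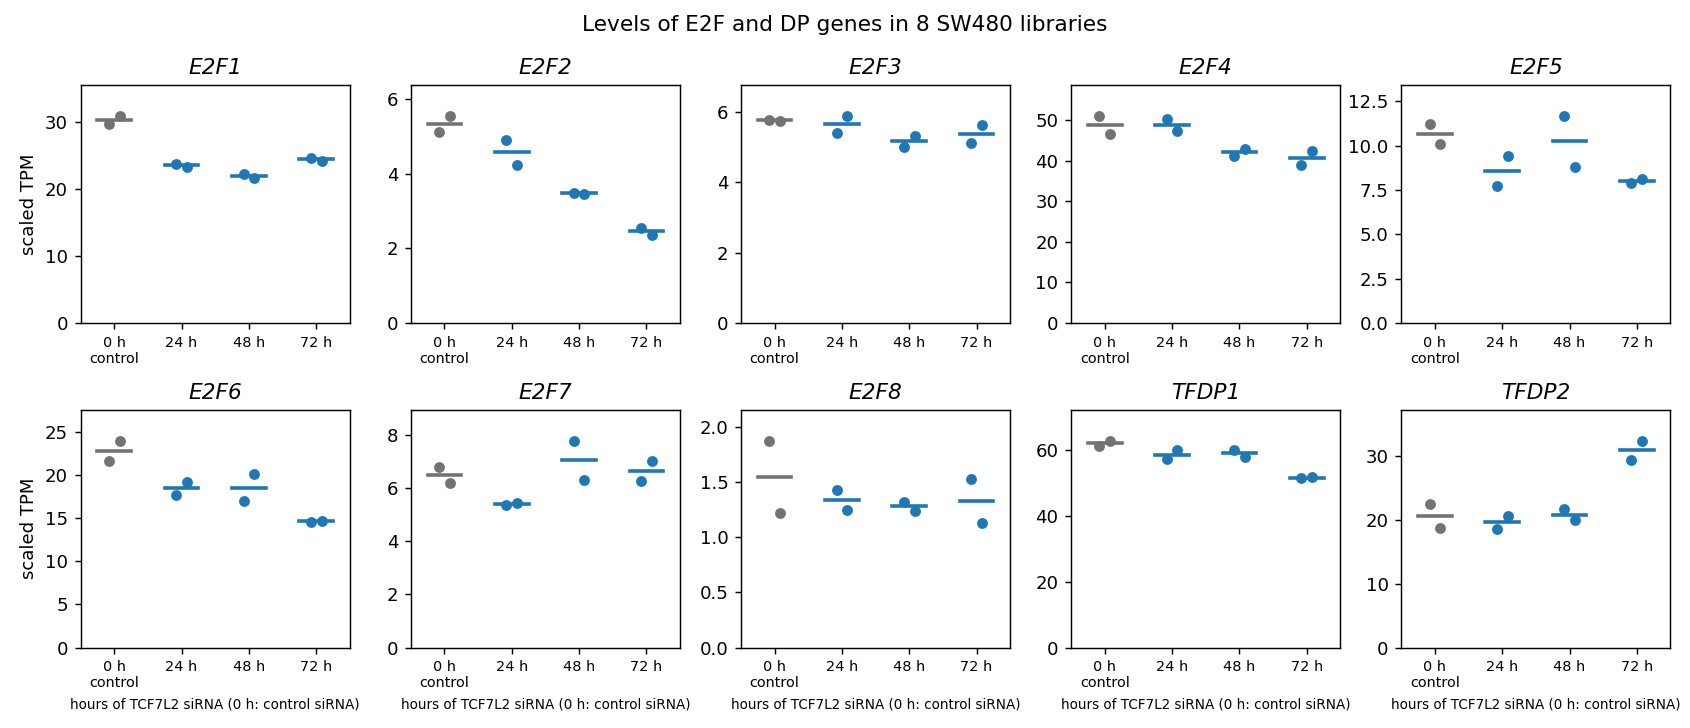
Scaled TPM (y axis, from 0, a scale for each gene) of the 10 E2F and DP genes by time of TCF7L2 siRNA, with the 0 h control siRNA at the left; points are libraries and bars the mean of 2. E2F2 was lower at each later time, E2F1 lay below the controls at every siRNA time, and TFDP2 was high at 72 h alone.

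Among the activators, E2F1 was called lower than control at 24, 48 and 72 h and E2F2 at 48 and 72 h, while E2F3 did not pass the test. E2F1, which also induces apoptosis genes when unrestrained, had 29.8 and 31.0 scaled TPM in controls, 23.7 and 23.4 by 24 h, 22.3 and 21.6 by 48 h, and 24.7 and 24.3 by 72 h. Both libraries of every siRNA time lay below both control libraries, and no siRNA time was called against another, although 72 h against 48 h (0.15 ± 0.06, adjusted p = 0.0643) was called after scaling to the same listed sum (adjusted p = 0.0253) and with no filter (0.0476). The log2 change of E2F1 against 0 h was -0.35 ± 0.06 by 24 h (adjusted p = 0.028), -0.45 ± 0.06 by 48 h (adjusted p = 0.000927) and -0.30 ± 0.06 by 72 h (adjusted p = 0.00185). On mean levels this was 77.5, 72.3 and 80.5% of the control. The 24 h call of E2F1 was lost without either 0 h library (adjusted p = 0.151 and 0.19), either 24 h library (0.143 and 0.167) or either 48 h library (0.0603 and 0.0602), with no filter (0.0606), with no mean-variance trend (0.087) and on TPM as deposited (0.317). On TPM as deposited the log2 change of E2F1 was -0.45 ± 0.16 by 24 h, and its 48 h call was lost (-0.46 ± 0.16, adjusted p = 0.0523). At 72 h E2F1 was called in all 20 alternatives, at -0.51 to -0.26.

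E2F2, an activator closely related to E2F1, had 5.12 and 5.54 scaled TPM in controls, 4.90 and 4.23 by 24 h, 3.49 and 3.45 by 48 h, and 2.54 and 2.36 by 72 h. No library of a later time overlapped one of an earlier time. The log2 change of E2F2 against 0 h was -0.19 ± 0.10 by 24 h (adjusted p = 0.403), -0.50 ± 0.10 by 48 h (adjusted p = 0.00781) and -0.87 ± 0.10 by 72 h (adjusted p = 9.75e-05). Its mean at 72 h was 46.0% of the control mean, a larger difference than the log2 value of (scaled TPM + 1) conveys. E2F2 also fell between 48 and 72 h (log2 change -0.37 ± 0.10, adjusted p = 0.0169) and between 24 and 72 h (-0.69 ± 0.10, adjusted p = 0.00045). The 48 h call against 0 h did not pass when the second 0 h library was left out (adjusted p = 0.0589), and that between 48 and 72 h without either 48 h library (0.0692 and 0.0675) or the second 72 h library (0.0679). The 72 h call against 0 h held in all 20 alternatives, at -1.09 to -0.47. E2F3, an activator needed for proliferation in many cell types, had 5.78 and 5.74 scaled TPM at 0 h and between 4.997 and 5.88 in the 6 siRNA libraries. Its log2 change against 0 h was -0.03, -0.13 and -0.09 at 24, 48 and 72 h, with a 95% interval at 72 h of -0.29 to 0.12.

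Among the repressors, E2F4 and E2F6 were called lower than control at 48 and 72 h and E2F5 at 72 h. E2F4, the most abundant E2F transcript, had 51.0 and 46.7 scaled TPM in controls, 50.2 and 47.4 by 24 h, 41.2 and 43.0 by 48 h, and 38.9 and 42.4 by 72 h. The 24 h libraries lay among the controls, and those of 48 and 72 h lay below them. The log2 change of E2F4 was 0.00 ± 0.07 by 24 h, -0.21 ± 0.07 by 48 h (adjusted p = 0.0484) and -0.26 ± 0.07 by 72 h (adjusted p = 0.00887). Of 20 alternatives, 13 ended the 48 h call of E2F4, including those without either 0 h library (adjusted p = 0.267 and 0.0592), either 24 h library (0.0624 and 0.061) or either 48 h library (0.197 and 0.105). Its 72 h call was lost without the first 0 h (adjusted p = 0.0753) or the first 72 h library (0.0568). E2F5 had 11.2 and 10.1 scaled TPM in controls, 7.71 and 9.41 by 24 h, 11.7 and 8.80 by 48 h, and 7.89 and 8.13 by 72 h. Its 2 libraries at 48 h lay far apart and spanned the controls. The 72 h change of E2F5 (-0.37 ± 0.13, adjusted p = 0.0393) passed narrowly, and 8 of 20 alternatives ended its call, including leaving out either 0 h library (adjusted p = 0.179 and 0.0605) and leaving out either 72 h library (0.115 and 0.0865). E2F5 shares exonic sequence with C8orf59 and an antisense gene on the other strand in GENCODE, to an extent that was not measured. Which strand was counted is not stated in the labels, so reads of the shared stretches may not be told apart from theirs.

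E2F6, the Polycomb-linked repressor, had 21.6 and 24.0 scaled TPM in controls, 17.7 and 19.3 by 24 h, 17.0 and 20.1 by 48 h, and 14.6 and 14.7 by 72 h. All siRNA libraries lay below both controls, and those of 72 h below all others. The log2 change of E2F6 was -0.29 ± 0.09 by 24 h (adjusted p = 0.147), -0.29 ± 0.09 by 48 h (adjusted p = 0.0464) and -0.61 ± 0.09 by 72 h (adjusted p = 0.000428), where its mean was 64.2% of the control. Of 20 alternatives, 13 ended the 48 h call of E2F6, including those without either 0 h library (adjusted p = 0.0723 and 0.238), either 24 h library (0.0601 and 0.0596), the first 48 h library (0.264) or either 72 h library (0.0536 in both), while the 72 h call held in all 20. E2F6 also fell between 24 and 72 h (-0.32 ± 0.09, adjusted p = 0.0161; lost without the second 24 h library, 0.104, or the first 72 h library, 0.0534) and between 48 and 72 h (-0.32 ± 0.09, adjusted p = 0.02; lost without the second 48 h library, 0.159, or either 72 h library, 0.0571 and 0.0565). GENCODE lists 4 genes named as copies of E2F6, 2 of E2F3 and 1 of E2F4, so reads of these genes could have been split with them.

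The atypical members did not pass the test against 0 h. E2F7 had 6.81 and 6.20 scaled TPM in controls, 5.35 and 5.46 by 24 h, 7.79 and 6.30 by 48 h, and 6.25 and 7.02 by 72 h. Both 24 h libraries lay below every other library, with a log2 change of -0.23 ± 0.11 against 0 h (adjusted p = 0.342). At 72 h the change of E2F7 was 0.02 ± 0.11, with a 95% interval of -0.22 to 0.27, and it turned to -0.17 on TPM as deposited. E2F8 had 1.88 and 1.23 scaled TPM at 0 h and 1.13 to 1.53 in the siRNA libraries, and its log2 change at 72 h was -0.12, with an interval of -0.46 to 0.21. At this level, and with control libraries this far apart, a change of E2F8 within that interval was not excluded. An antisense gene overlaps E2F8 on the other strand.

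The DP partners moved in opposite directions at 72 h. TFDP1, the main DP partner in most cells, had 61.2 and 62.9 scaled TPM in controls, 57.1 and 59.9 by 24 h, 60.1 and 57.8 by 48 h, and 51.4 and 51.7 by 72 h. The 72 h libraries lay below all the others, with a log2 change against 0 h of -0.26 ± 0.05 (adjusted p = 0.00198), called in all 20 alternatives. TFDP1 also fell between 48 and 72 h (-0.19 ± 0.05, adjusted p = 0.015; lost without the first 48 h library, adjusted p = 0.0994, and after quantile normalization, 0.0516) and between 24 and 72 h (-0.18 ± 0.05, adjusted p = 0.0151; lost when the second 24 h library was left out, adjusted p = 0.0958, after quantile normalization, 0.094, and on TPM as deposited, 0.14). TFDP2, the other DP partner, had 22.4 and 18.7 scaled TPM in controls, 18.6 and 20.6 by 24 h, 21.7 and 19.9 by 48 h, and 29.4 and 32.4 by 72 h. The first 6 libraries overlapped and both 72 h libraries lay above them. TFDP2 rose by 0.57 ± 0.10 against 0 h (adjusted p = 0.000895), by 0.55 ± 0.10 between 48 and 72 h (adjusted p = 0.00195) and by 0.63 ± 0.10 between 24 and 72 h (adjusted p = 0.000509). On TPM as deposited TFDP2 was higher by 0.35 (adjusted p = 0.0613), 0.34 (0.0944) and 0.51 (0.00677), so its call depends on the scaling for the first pair of comparisons.

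Ratios within a library do not depend on the scaling. The ratio of TFDP1 to TFDP2 was 1.75 and 1.599 in the 72 h libraries, against 2.73 and 3.35 in the control libraries, and was 2.77 to 3.07 at 24 and 48 h. The ratio of E2F1 to E2F2 was 9.71 and 10.3 at 72 h, against 5.82 and 5.59 at 0 h, and was 4.84 to 6.38 at 24 and 48 h. The summed E2F transcripts were 101.5 and 105.6 scaled TPM at 72 h, against 133.3 and 130.4 at 0 h, and the summed DP transcripts 80.8 and 84.1, against 83.6 and 81.6. These sums, unlike the ratios, depend on the scaling. The DP to E2F ratio was 0.796 in both 72 h libraries and 0.627 and 0.626 in the controls. E2F1, E2F2 and E2F3 together made up 31.8 and 30.5% of E2F transcripts at 72 h and 30.5 and 32.4% at 0 h, overlapping, while E2F6 made up 14.4 and 13.9%, against 16.2 and 18.4%.

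**Figure D2:**
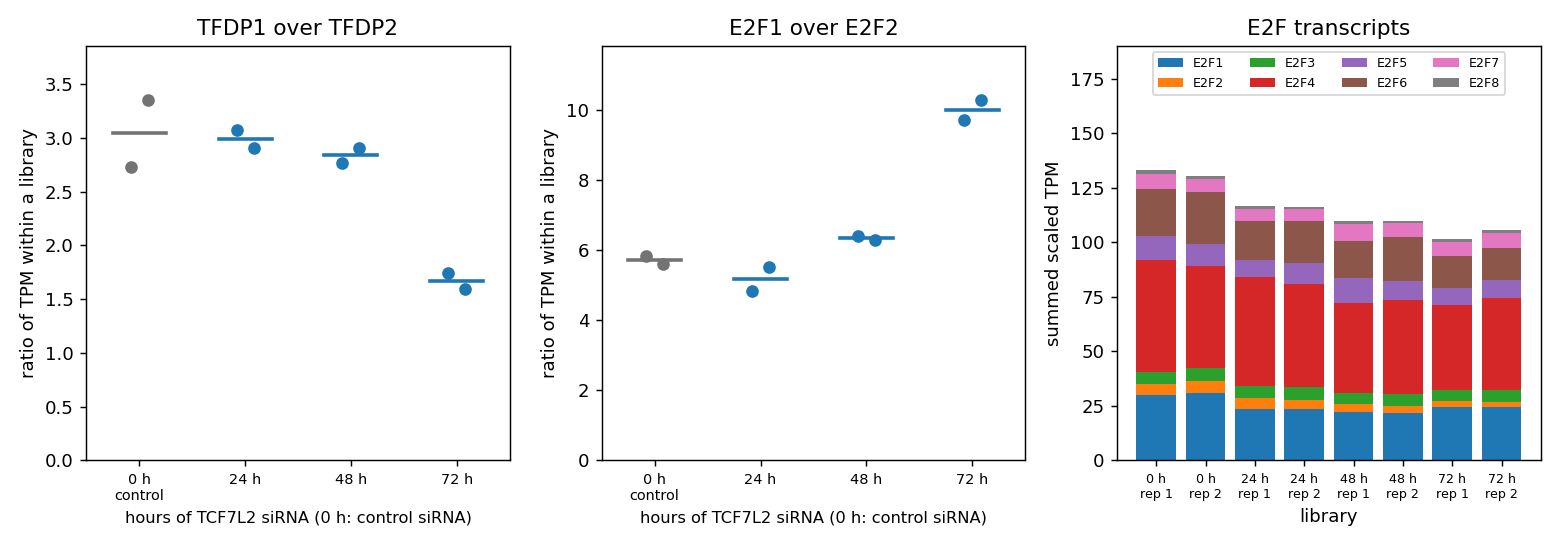
Ratio of TPM within each library for TFDP1 over TFDP2 (left) and E2F1 over E2F2 (middle), by time with the 0 h control at the left (points are libraries, bars the mean of 2), and the summed scaled TPM of the 8 E2F genes per library (right, bars from 0, stacked by gene). The DP ratio was 1.599 to 1.75 at 72 h and 2.73 or more in every other library, and the E2F sum was lowest at 72 h.

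In counts, 1 of 10 members was called lower at 24 h against 0 h and 0 higher, where limma called 0.437% of all genes lower, 0.647% higher and 1.08% in either direction. At an unadjusted p under 0.05 these were 2 and 0. At 48 h 4 members were lower (11.5% of all genes) and 0 higher (12%), with 23.5% of all genes called in either direction and 4 and 0 members unadjusted. At 72 h 6 were lower (26.2% of all genes) and 1 higher (25.8%), and 52% of all genes were called in either direction, against 7 of 10 members. The median log2 change of the 10 members was -0.15, -0.14 and -0.26 at 24, 48 and 72 h, where the median of all genes lay between -0.01 and 0.00. The 3 comparisons share the 0 h libraries, so their values are not independent. The 24 h count was 0 without any 1 library of 0, 24 or 48 h. At 48 h the count was 1 without the second 0 h library and 2 without the first 0 h, either 24 h or the first 48 h library. At 72 h it was 5 to 7 without any 1 library.

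**Figure D3:**
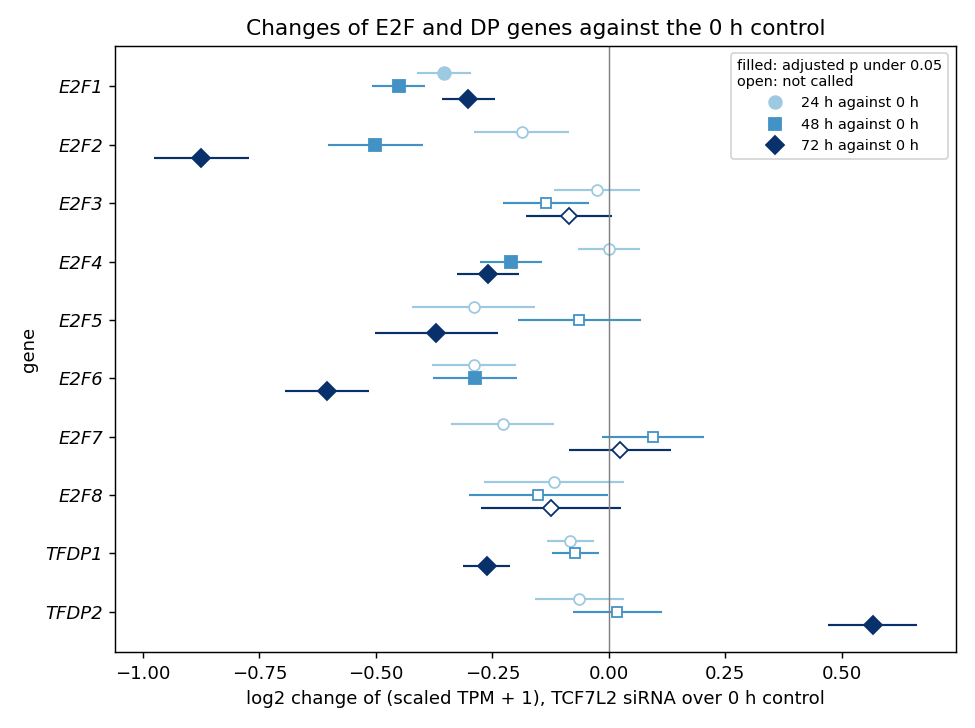
Log2 change of (scaled TPM + 1) of each E2F and DP gene at 24, 48 and 72 h of TCF7L2 siRNA over the 0 h control (x axis), with bars of 1 SE from limma; filled symbols had an adjusted p under 0.05. E2F2 and E2F6 had the largest falls at 72 h, -0.87 and -0.61, and TFDP2 the rise, 0.57.

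Between siRNA times, where all libraries had the TCF7L2 siRNA, limma called 0 of 10 members at 48 h against 24 h (14% of all genes, 7.56% higher and 6.47% lower), with 1 higher and 2 lower at an unadjusted p under 0.05. These were E2F7 (0.32 ± 0.11, adjusted p = 0.0828), E2F2 (-0.31 ± 0.10, adjusted p = 0.0713) and E2F4 (-0.21 ± 0.07, adjusted p = 0.0666). At 72 h against 48 h 3 members were lower (19.4% of all genes) and 1 higher (20.5%; either direction 39.9%), namely E2F2, E2F6 and TFDP1 against TFDP2, as above. That total of 4 was 2 without the first 48 h or the second 72 h library. At 72 h against 24 h 4 were lower (25.2%) and 1 higher (24.9%; either direction 50.1%), E2F4 being the additional one (-0.26 ± 0.07, adjusted p = 0.00937). The call of E2F4 was lost on TPM as deposited (adjusted p = 0.0531) and without the first 24 h (0.0632) or the first 72 h library (0.0586). That total of 5 was 3 without the second 24 h or the first 72 h library. No further change of E2F1 passed the test, with a difference between 24 and 72 h of 0.05 ± 0.06 (adjusted p = 0.477; 95% interval of -0.08 to 0.18).

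Of genes whose profile over the 8 libraries lay nearest to TFDP2, by the root-mean-square difference of centred log2 values, the first 3 were NRP2, which encodes a semaphorin receptor (0.061), AHI1, a ciliary gene (0.063), and BAZ2A, a chromatin remodelling gene (0.064), where the median over all genes was 0.299. Nearest to E2F2 were CDCA5, which encodes the cohesion factor sororin (0.044), NR1D2, a nuclear receptor of the clock (0.052), and AHRR, the aryl hydrocarbon receptor repressor (0.058), against a median of 0.357. Within the family E2F3 and E2F4 were the nearest pair (0.095), and E2F2 and TFDP2 the farthest (0.58). These distances describe 8 libraries in 4 groups.

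The genes around the E2F factors were followed in lists chosen with earlier results of these data known. Of 48 G1/S genes known as E2F targets, 0 were higher and 3 lower by 24 h (43 were below 0; median log2 change -0.20), 0 and 24 by 48 h (median -0.27), and 0 and 34 by 72 h (median -0.38). At an unadjusted p under 0.05 by limma these were 0 and 30, 0 and 31, and 0 and 38. By adjusted p, 0.437, 11.5 and 26.2% of all genes were called lower and 0.647, 12 and 25.8% higher at 24, 48 and 72 h. No share of all genes was taken at an unadjusted p, so unadjusted counts, here and elsewhere, cannot be set against all genes. In bulk RNA, fewer cells in a cycle phase and less RNA per cell cannot be told apart. TK1, a thymidine kinase, had 15.6 ± 0.44 scaled TPM at 72 h, against 32.4 ± 0.61 at 0 h (SD, n = 2 each, here and below; log2 change -1.01 ± 0.06). PCNA, the polymerase clamp, had 91.9 ± 4.92 against 142.2 ± 1.36 (-0.63 ± 0.05). MCM6, a helicase subunit, fell by 0.64 ± 0.06 on the log2 scale, and CDC25A, a phosphatase that activates CDK2, by 0.71 ± 0.07. The 24 h calls were CCNE1, which encodes cyclin E1 (-0.56 ± 0.09, adjusted p = 0.0298), MCM7, another helicase subunit (-0.27 ± 0.04), and RRM2, a ribonucleotide reductase subunit (-0.37 ± 0.07), named after their values were seen. On TPM as deposited 1, 6 and 38 targets were lower at 24, 48 and 72 h. In that fit the median log2 change of all genes was -0.19 at 72 h. No share of all genes called was taken on TPM as deposited, so such counts, here and elsewhere, cannot be set against all genes. The 24 h count was 0 without any single 0 h, 24 h or 48 h library and 7 without either 72 h library. The 48 h count was 13 and 11 without the first and second 0 h library, and 15 and 10 without the first and second 48 h library. At 72 h it was 28 to 34 without any 1 library.

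Of 63 listed promoters of 41 of these targets, 31.7% held an E2F core match and 6.35% the CHR letters. Of 21 listed promoters of 16 genes of the G2/M list, 9.52% held a core match and 47.6% the CHR letters. Among all 35116 listed promoters these shares were 7.33 and 13.3%, so the core share of the G2/M list was close to that of all.

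Of 21 G2/M genes, which MuvB complexes with MYBL2 and FOXM1 activate, 1 was higher and 0 lower at 24 h (0 lower also unadjusted, 7 higher), with a median of 0.14 on scaled TPM and 0.05 as deposited. That gene was CCNB1, which encodes cyclin B1 (0.38 ± 0.06, adjusted p = 0.0205, named after its value was seen), and the count was 0 without any single 0 h, 24 h or 48 h library and 2 without either 72 h library. The 24 h call of CCNB1 was lost on TPM as deposited (adjusted p = 0.764), with no filter and with no mean-variance trend. Among all genes, 0.647% were called higher and 0.437% lower at 24 h. At 48 h 0 G2/M genes were higher (12% of all genes) and 2 lower (11.5%). At 72 h 0 were higher (25.8%) and 8 lower (26.2%), with 0 and 8 unadjusted and a median of -0.11. The 48 h count was 1 without either 0 h library or without the first 48 h one and 4 without either 72 h library, and the 72 h count was 5 without the second 0 h library. At 48 h 0 were lower on TPM as deposited, against 1 with no filter, 4 with the compared groups alone and 7 after scaling to the same listed sum. BIRC5, the survivin gene, fell by 0.60 ± 0.07 at 72 h, TOP2A, a topoisomerase, by 0.50 ± 0.06, CDC20, an activator of the anaphase-promoting complex, by 0.43 ± 0.06, and KIF23, a mitotic kinesin, by 0.36 ± 0.07.

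**Figure D4:**
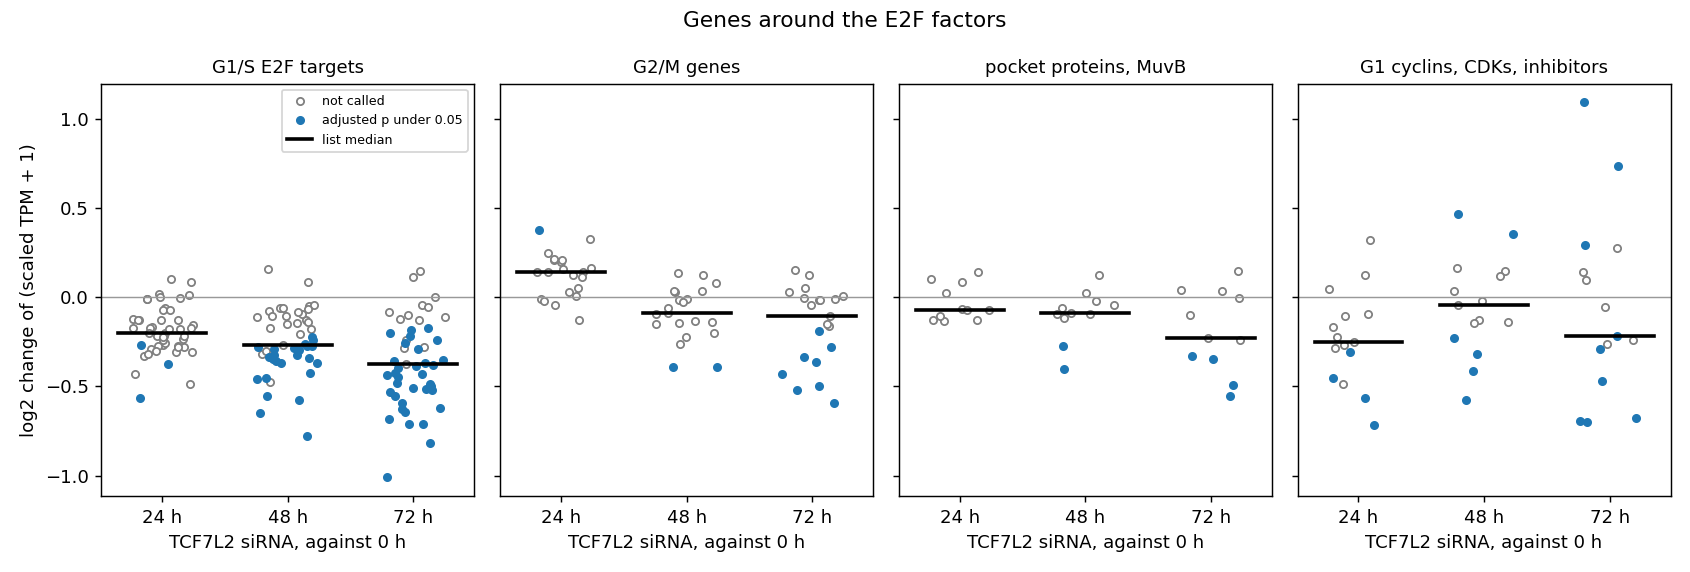
Log2 change of (scaled TPM + 1) against the 0 h control (y axis) for each gene of 4 lists at 24, 48 and 72 h of TCF7L2 siRNA; filled points had a limma adjusted p under 0.05, and bars are list medians. The median of the G1/S targets was -0.20, -0.27 and -0.38, and that of the G2/M genes 0.14, -0.09 and -0.11.

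The pocket proteins and their MuvB partners comprised 11 genes. By 24 h 0 were called (1 higher and 0 lower unadjusted by limma), against 1.08% of all genes in either direction. By 48 h 2 were lower (11.5% of all genes) and 0 higher (12%), and by 72 h 4 were lower (26.2%) and 0 higher (25.8%). On TPM as deposited 0 were lower at 48 h and 6 at 72 h, and quantile normalization also gave 6 at 72 h. RB1, the pocket protein of the activators, had 12.5 scaled TPM at 72 h, against 12.2 at 0 h (log2 change 0.04, adjusted p = 0.735). RBL1 (0.14, adjusted p = 0.177) and RBL2 (0.04, adjusted p = 0.651), which encode p107 and p130, did not pass either, and these 3 pocket protein genes were named after their values were seen. MYBL2, the B-MYB gene and also on the G1/S target list, fell by 0.55 ± 0.06 (adjusted p = 4.71e-05), the histone chaperone gene RBBP4 by 0.49 ± 0.05, FOXM1 by 0.33 ± 0.06 and the MuvB subunit gene LIN37 by 0.35 ± 0.11 (adjusted p = 0.021). LIN37 was not called at 72 h without either 0 h or the second 72 h library. The 48 h count of 2 was 0 without the first 0 h or the second 48 h library, and 1 without the second 0 h or the first 48 h library.

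Upstream of RB1, the list of 15 G1 cyclins, cyclin-dependent kinases and their inhibitors had 0 higher and 4 lower by 24 h (0 and 8 unadjusted), 2 and 4 by 48 h, and 3 and 6 by 72 h. On TPM as deposited these were 0 and 2, 1 and 1, and 2 and 8, and the 48 h calls of CCND1 and CCND2 were lost (adjusted p = 0.248 and 0.468). With no mean-variance trend 1 was lower at 24 h. The shares of all genes called higher were 0.647, 12 and 25.8% at 24, 48 and 72 h, and those called lower 0.437, 11.5 and 26.2%. CCND1, which encodes cyclin D1, fell to 85.0 ± 1.78 scaled TPM at 72 h, against 138.8 ± 1.30 at 0 h (-0.70 ± 0.06, adjusted p = 1.18e-05). Its kinase partner gene CDK4 fell by 0.68 ± 0.06 and CCND2, another cyclin D gene, by 0.47 ± 0.04. CDKN2A, which encodes the CDK4 inhibitor p16 and ARF, rose to 59.7 ± 8.69, against 27.3 ± 0.38 (1.09 ± 0.09, adjusted p = 1.46e-05). The 24 h calls were CCND2, CCNE1, CDK6 and CDKN1A, the last of which encodes p21 (-0.72 ± 0.07), named after their values were seen, and CCNE1 is also on the G1/S list. Their count was 1 without either 0 h or the second 24 h library and 0 without the first 24 h library. At 48 h the 2 higher genes were CDKN2A and CDKN2B, an inhibitor gene named after its value was seen, and their count was 0 without the second 48 h library and 1 without the second 0 h or the first 48 h library. The 6 lower calls at 72 h were 4 without the first 0 h or the first 72 h library.

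Of the apoptosis genes known as E2F1 targets, 10 of 11 passed the filter, and their calls went in both directions, as among all genes. The shares of all genes called in either direction were 1.08, 23.5 and 52% at 24, 48 and 72 h. At 24 h 0 of the list were called (1 higher and 2 lower unadjusted by limma). At 48 h 3 were higher (12% of all genes) and 2 lower (11.5%), and at 72 h 4 were higher (25.8%) and 2 lower (26.2%). These were 1 and 1 at 48 h and 4 and 4 at 72 h on TPM as deposited. BCL2L11, which encodes BIM, had 17.1 ± 0.16 scaled TPM at 72 h, against 7.94 ± 0.78 at 0 h (1.02 ± 0.12, adjusted p = 0.000108), and APAF1, the apoptosome gene, rose by 0.82 ± 0.11. BBC3, which encodes PUMA, fell by 0.91 ± 0.09 and SIVA1 by 0.80 ± 0.06. The 5 calls at 48 h were 2 without the first 0 h library, 1 without the second 0 h or the second 48 h library, and 3 without either 24 h library or without the first 48 h one.

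Of 10 partners of E2F6 in its Polycomb complex, PRC1.6, 0 were called by 24 h (0 unadjusted), against 1.08% of all genes in either direction. By 48 h 2 were lower (11.5% of all genes) and 0 higher (12%), and by 72 h 3 were lower (26.2%) and 0 higher (25.8%). At an unadjusted p under 0.05 by limma 0 were higher at 48 or 72 h. The share of the list called lower at 72 h was close to that of all genes. Without scaling, on TPM as deposited, 0 were lower at 48 h and 4 at 72 h. CBX3, a heterochromatin protein gene, had 96.0 ± 0.46 scaled TPM at 72 h, against 162.2 ± 3.86 at 0 h (-0.75 ± 0.06, adjusted p = 1.03e-05), WDR5 fell by 0.38 ± 0.06, and PCGF6 by 0.29 ± 0.09, the last not called without either 0 h library or without the first 72 h one. RING1 did not pass (-0.19 ± 0.09, adjusted p = 0.0858). At 48 h the count was 0 without the second 0 h or the first 48 h library and 1 without the first 0 h or the second 48 h library. Of 10 germline genes that E2F6 and PRC1.6 silence, as known mainly from mouse, 1 passed the filter. It was STAG3, a meiotic cohesin gene, with 2.77 ± 0.45 scaled TPM at 72 h, against 1.73 ± 0.16 at 0 h (0.46 ± 0.14, adjusted p = 0.019). The STAG3 call was lost on TPM as deposited (adjusted p = 0.137), after quantile normalization and without the second 0 h or the second 72 h library.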

How the data were processed

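Total RNA of SW480 cells, depleted of ribosomal RNA per the labels' protocols, was sequenced. The authors deposited TPM made with RSEM, and the submitters' processing notes name STAR, SAMtools, Picard, Trimmomatic, FastQC and the build hg19. The labels state no versions, annotation or strand setting. TPM values were divided by the median ratio of each library to the mean log profile, and log2(scaled TPM + 1) of the 11894 genes that reached a TPM of 1 in at least 2 libraries entered limma (version 3.58.1, R 4.3.3), with 4 residual degrees of freedom and a mean-variance trend. Scaling was preferred because on TPM as deposited the prior degrees of freedom were infinite, so that a gene's own spread was not used, whereas after scaling they were 5.41. Tests are two-sided, and p-values were adjusted over these genes by the Benjamini-Hochberg method. Depth per library is unknown. The members, lists, scaling and tests were chosen with earlier results of these data known. Genes were named as all members, TCF7L2, up to 4 genes per list with the smallest p at 72 h, and the 3 profiles nearest to the members with the largest rise and fall. Other list genes were named after their values were seen, as stated beside them. Promoters are from RefSeq, GRCh38.p14, and overlapping genes and named copies from GENCODE release v29. Tried alternatives were TPM as deposited, quantile normalization, an equal listed sum, pseudocounts of 0.1 and 5, other filters and variance models, the compared groups alone, a replicate block, a threshold of 0.01 and leaving out each library. A further gene considered as a marker is not reported here.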

Additional observations from a re-analysis of the deposited data

Results flagged for a closer look

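For 5 members the change against the shared 0 h control differed between 72 h and 24 h of TCF7L2 siRNA, by the limma test of 72 h against 24 h itself. The difference in log2 change, 72 h minus 24 h, was -0.69 for E2F2, -0.26 for E2F4, -0.32 for E2F6, -0.18 for TFDP1 and 0.63 for TFDP2. Those of E2F4 and TFDP1 did not pass on TPM as deposited (adjusted p = 0.0531 and 0.14). Groups of 2 libraries are too small to single out a library within a group.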

How the results depend on the processing

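Of 1194 recomputed changes of single members, 1117 kept their side of the threshold, 71 calls were lost and 6 were gained, and no called change turned its sign. Uncalled changes turned sign in 46 cases, all under 0.17 in size. On TPM as deposited the members called were 0 at 24 h, 1 at 48 h against 0 h and 3 at 72 h against 24 h, and the G1/S targets 1 at 24 h and 6 at 48 h. Quantile normalization gave 2 members at 48 h. An equal listed sum gave 6 targets at 24 h. No filter gave 0 members and 0 targets at 24 h and 2 members at 48 h, a minimum TPM of 5 gave 5 targets at 24 h, and no trend gave 0 members and 0 targets at 24 h, 2 members at 48 h and 1 member at 48 h against 24 h. The compared groups alone gave 1 member at 48 h against 24 h. A threshold of 0.01 gave 0 members and 0 targets at 24 h, 2 members and 13 targets at 48 h, 1 member at 72 h against 48 h and 3 at 72 h against 24 h. The cause of these differences was not tested.

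Leaving out each library in turn gave 0 to 1 members and 0 to 7 targets at 24 h, 1 to 3 members and 10 to 26 targets at 48 h, 5 to 7 members and 28 to 34 targets at 72 h, 0 at 48 h against 24 h, 2 to 4 at 72 h against 48 h and 3 to 5 at 72 h against 24 h. A lone library was assumed to vary like the other groups. Deviations of same-numbered libraries correlated across genes at -0.09 to 0.11, so no strong deviation shared by replicate number was seen. This cannot show whether same-numbered libraries were handled together. The replicate block gave 1, 3 and 6 members and 2, 25 and 35 targets at 24, 48 and 72 h against 0 h, and 0, 4 and 5 members at 48 h against 24 h, 72 h against 48 h and 72 h against 24 h. Under it E2F4 at 48 h (adjusted p = 0.0644) and E2F5 at 72 h (0.0527) were not called. TPM without depth limits what can be said of E2F8, the lowest member.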
